A study of Mus musculus with 17 samples.

Results

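Heat shock proteins and folding chaperones were followed in liver and hippocampus of mice fed a fungal oil rich in arachidonate, a fish oil that supplied docosahexaenoate, or both. The set holds every probe set with a single gene symbol that starts with Hsp, Dnaj, Pdia or Fkbp, or with Cct and a digit, together with Canx, Calr, P4hb and Tcp1. It comprises 79 of the 13069 probe sets over 2 arrays, chip A with 53 of them and chip B with 26, and 58 of the 6137 genes named there. Male Rj:NMRI mice, an outbred stock, were kept 10 per cage and killed on day 57 or 58, and per the labels 5 of 10 mice per diet were picked at random for the liver analysis. In the fungal oil group 1.1% of an arachidonate-rich oil stood in for some of the medium chain triacylglycerol oil, in the fish oil group 1.9% of fish oil did so, and in the group fed both oils the additions were combined. The control diet held neither of them, and all diets shared the same purified base with milk fat, palm olein, sunflower oil and soybean oil. Liver gave 1 RNA of each oil diet and 2 control RNAs, and hippocampus gave 1 RNA of each diet, with the both oils RNA measured here on chip B only. The labels do not say whether an RNA was pooled over mice, nor whether the 2 liver controls came from separate animals, so the p-values in liver rest on a spread that may be technical. Diet, cage and day of death cannot be told apart.

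Chaperones bind proteins that are not folded and hold, refold or pass them on. Hsp70 proteins work in cycles set by J proteins, which make them hydrolyse ATP, and by exchange factors of the Hsp110 family, while Hsp90 acts later on kinases and steroid receptors and the CCT ring encloses actin and tubulin. In the endoplasmic reticulum, which is extensive in hepatocytes because they secrete plasma proteins, BiP (Hspa5), the lectins calnexin and calreticulin and the protein disulfide isomerases fold secreted chains, and their genes are known targets of the unfolded protein response.

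By role the set holds 15 genes of the endoplasmic reticulum, 9 of the cytosolic Hsp90, Hsp70 and Hsp110 families, 4 of mitochondria, 9 of the CCT ring, 3 small heat shock proteins, 11 other J proteins and 5 other immunophilins. The rule also takes in Hspg2, which encodes the basement membrane proteoglycan perlecan, and Hspbp1, which releases nucleotide from Hsp70, and neither is a chaperone. Values are deposited intensities, which have no unit, and those below 15 were set to that floor. A filter at the median brightness of each chip kept 60 of 79 probe sets in liver (46 genes), 62 in hippocampus (49 genes) and 62 in the comparison of the tissues, and 13 were kept in neither tissue. Hspa1a, the stress-inducible Hsp70, was among those left out, with intensities of 2 (fungal oil), 18 (fish oil) and 15 (both oils) against 22 and -3 in the 2 controls in liver, and of 4 (fungal oil) and 12 (fish oil) against 10 (control) in hippocampus. It was thus near or below the floor on all of these arrays. Hspa1b, Hsp90ab1 and Hsp90b1 were not analysed here. Several probe sets, among them those of Hspa5, Hspa8, Fkbp1a and Cct4, are of the platform's family type, which can share probes with related genes, and their values are uncertain in that respect.

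The tissues carried the markers of their labels. The summed intensity of 6 measured hepatocyte genes was 34915 to 45401 in liver against 408 to 739 in the 3 hippocampus RNAs with all of them measured, and that of 7 neuronal genes was 46 to 180 in liver against 9044 to 9294 in hippocampus, with Camk2a and Nefl at the floor in every liver array. RNA quality differed between the tissues, with a ratio of 3-prime to 5-prime Gapdh signal of 1.89 to 3.26 in liver and 0.84 to 0.947 in the hippocampus arrays where it was measured.

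The lowest unadjusted p-values among the members for fungal oil and for both oils in liver belonged to BiP, which was lowest in the 2 RNAs of mice that ate fungal oil, but these differences did not pass the test. Hspa5 on chip A read 1215 (fungal oil), 2073 (fish oil) and 1183 (both oils), against 1906 and 1879 in the controls. On chip B a second Hspa5 probe set read 1996 (fungal oil), 3014 (fish oil) and 1820 (both oils), against 2989 and 2614 in the controls. On both chips the fungal oil and both oils RNAs lay below the other 3, with the fish oil RNA highest. The log2 difference from control on chip A was -0.64 ± 0.08 (SE) for fungal oil (limma adjusted p = 0.505, unadjusted p = 0.00306), 0.13 ± 0.08 for fish oil (adjusted p = 0.607) and -0.68 ± 0.08 for both oils (adjusted p = 0.39, unadjusted p = 0.00256). On chip B the differences were -0.49 for fungal oil, 0.11 for fish oil and -0.62 for both oils, with adjusted p of 0.544, 0.786 and 0.46. In such tissue samples fewer cells of a type and less RNA per cell cannot be told apart.

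Among the members with both fungal oil RNAs below the other 3, which are counted further on, a co-chaperone of BiP and an exchange factor of the cytosol are described here. Dnajb11 (ERdj3, a J protein of the endoplasmic reticulum that works with BiP) read 231 (fungal oil), 293 (fish oil) and 231 (both oils), against 335 and 304 in the controls. Hsph1 (Hsp105, the Hsp110-type exchange factor) read 129 (fungal oil), 201 (fish oil) and 115 (both oils), against 231 and 237 in the controls. By that choice both genes were lowest in the fungal oil and both oils RNAs, an order found in 10.5% of all probe sets. For each the fish oil RNA also lay below both controls. The log2 differences of Hsph1 were -0.86 ± 0.15 for fungal oil and -1.02 ± 0.15 for both oils, with adjusted p of 0.505 and 0.39, and those of Dnajb11 were -0.47 ± 0.15 in each, with adjusted p of 0.544 and 0.496.

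The promoters of these 3 genes are shown because each holds a known stress element in the window from 250 bases before to 50 after the start site, from RefSeq on build GRCm38.p6. Hspa5 lies at chr2:34771840-34772139 on the plus strand, Dnajb11 at chr16:22857595-22857894 on the plus strand and Hsph1 at chr5:149636287-149636586 on the minus strand. The sequences run 5′ to 3′ on the strand of the gene, and capitals mark the fixed letters of the motifs found.
Hspa5: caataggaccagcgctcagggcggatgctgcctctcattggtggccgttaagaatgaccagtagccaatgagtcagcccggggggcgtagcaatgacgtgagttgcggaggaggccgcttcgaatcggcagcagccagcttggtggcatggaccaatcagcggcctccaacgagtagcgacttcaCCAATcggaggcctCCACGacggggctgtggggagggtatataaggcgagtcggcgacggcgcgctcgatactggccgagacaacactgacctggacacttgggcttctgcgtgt
Dnajb11: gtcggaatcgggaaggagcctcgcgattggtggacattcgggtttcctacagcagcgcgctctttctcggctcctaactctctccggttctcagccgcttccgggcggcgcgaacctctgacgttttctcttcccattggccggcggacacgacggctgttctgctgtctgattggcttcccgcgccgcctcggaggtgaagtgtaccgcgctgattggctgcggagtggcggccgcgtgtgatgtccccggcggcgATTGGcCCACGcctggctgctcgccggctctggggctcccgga
Hsph1: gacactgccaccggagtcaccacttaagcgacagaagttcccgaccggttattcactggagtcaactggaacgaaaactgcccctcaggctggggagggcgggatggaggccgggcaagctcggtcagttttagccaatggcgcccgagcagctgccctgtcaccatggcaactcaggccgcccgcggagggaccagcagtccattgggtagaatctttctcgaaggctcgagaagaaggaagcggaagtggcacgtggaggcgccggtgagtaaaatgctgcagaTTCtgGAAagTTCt
Capitals in Hspa5 are the endoplasmic reticulum stress element, searched as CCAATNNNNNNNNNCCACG, which starts 65 bases before the start site. Those in Dnajb11 are the second form of that element, ATTGGNCCACG, starting at base 8 after it, and those in Hsph1 are a heat shock element of 3 units, TTCNNGAANNTTC or its reverse complement GAANNTTCNNGAA, starting at base 37. Both strands were searched, and the motifs were chosen with the results above known. Of 58 member genes 51 had a window. The first form was found in those of Calr, Canx, Dnajc3, Hspa5 and Pdia6, and in 0.119% of all 32851 windows. The second form was found in Dnajb11 alone among members and in 0.0365% of all windows, and the heat shock element in Dnajb6, Hspd1, Hspe1 and Hsph1 and in 0.603% of all windows. Counted by gene, the shares of 27025 genes were 0.137% for the first form, 0.0444% for the second and 0.662% for the heat shock element. The windows of Hspd1 and Hspe1, which lie head to head on chromosome 1, overlap, and their matches fall on the same bases. A match describes letters only, and genes with a match did not share 1 order of RNAs: Calr read 1820 (fungal oil), 1685 (fish oil) and 1749 (both oils), against 1592 and 1858 in the controls.

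**Figure D1:**
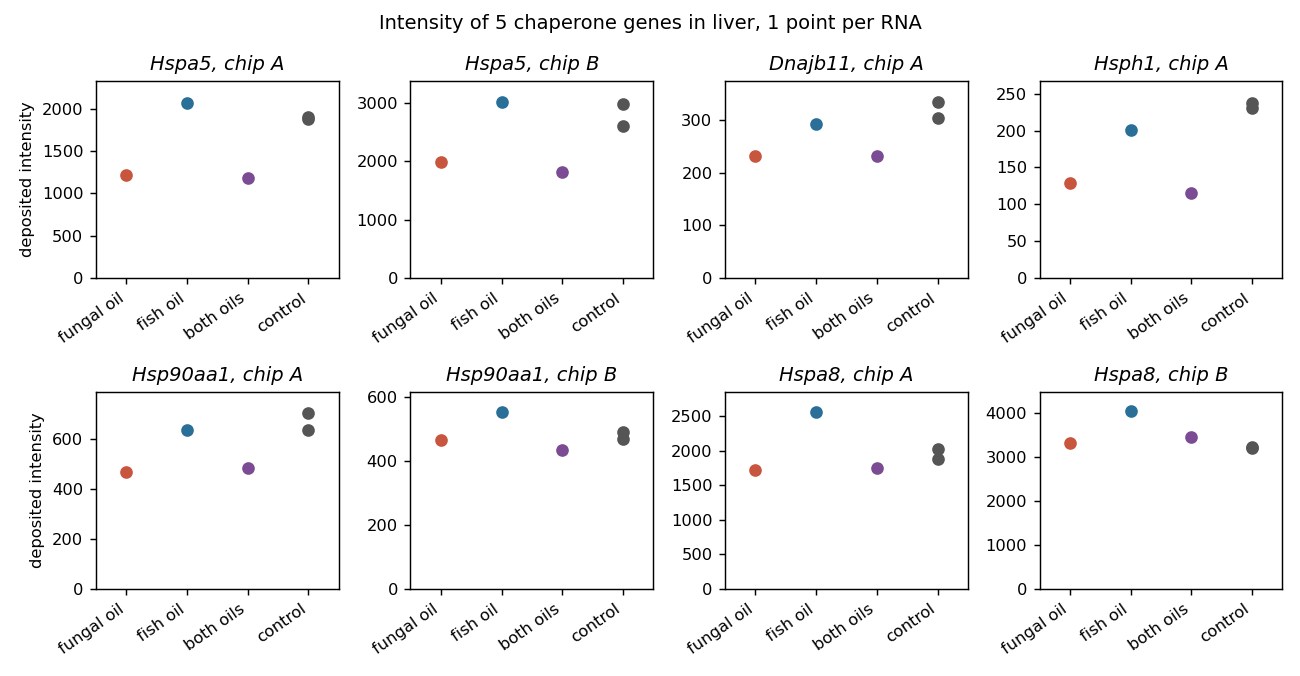
Deposited intensity (vertical axes, from 0, no unit) of 5 genes in liver, with 1 point per RNA and 1 panel per probe set. Hspa5 and Hsp90aa1 on both chips, Dnajb11, Hsph1 and Hspa8 on chip A are lowest in the fungal oil and both oils RNAs. For Hsp90aa1 the distance from the controls is smaller on chip B than on chip A. Hspa8 is highest in the fish oil RNA on both chips.

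For the other cytosolic chaperones the probe sets of a gene often differed. Hsp90aa1, the inducible Hsp90, read 469 (fungal oil), 636 (fish oil) and 484 (both oils) against 706 and 635 in the controls on chip A. On chip B it read 467 (fungal oil), 555 (fish oil) and 436 (both oils) against 490 and 470 in the controls. Chip A and chip B thus gave log2 differences for fungal oil of -0.51 and -0.04, of which the first alone had an unadjusted p under 0.05. Hspa8, the constitutive Hsp70, read 1725 (fungal oil), 2554 (fish oil) and 1747 (both oils) against 1885 and 2026 in the controls on chip A, and 3319 (fungal oil), 4039 (fish oil) and 3468 (both oils) against 3202 and 3219 on chip B. The fish oil RNA was the highest on both chips, by a log2 difference from control of 0.39 (chip A, adjusted p = 0.415) and 0.33 (chip B, adjusted p = 0.459). The fungal oil RNA lay below both controls on chip A and above both on chip B. Hspa4, another exchange factor of the Hsp110 type, had log2 differences of 0.61 (fungal oil), 0.94 (fish oil) and 0.52 (both oils) by its dimmer probe set and of -0.30 (fungal oil), -0.10 (fish oil) and -0.18 (both oils) by its brighter one, so that the signs were opposite in every diet.

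Most other chaperones of the endoplasmic reticulum lay close to control. P4hb, the classical protein disulfide isomerase, read 2483 (fungal oil), 2679 (fish oil) and 2420 (both oils), against 2671 and 2417 in the controls. Pdia3, the isomerase that works with the lectins, read 1474 (fungal oil), 1423 (fish oil) and 1525 (both oils), against 1268 and 1417. All 3 oil RNAs of Pdia3 lay above both controls, whereas those of P4hb overlapped them. Pdia4 read 445 (fungal oil), 500 (fish oil) and 529 (both oils), against 590 and 542, and Pdia6 read 78 (fungal oil), 68 (fish oil) and 86 (both oils), against 110 and 145. Both of these isomerases were below both controls in all 3 oil RNAs. For Pdia6 the log2 difference of the 3 oil RNAs from control was -0.71 ± 0.24 (adjusted p = 0.496). Calnexin (Canx), a membrane-bound lectin chaperone, had 3 probe sets whose log2 differences for fungal oil ranged over -0.08 to 0.30, with adjusted p of 0.821 to 0.943, and Dnajc3, a BiP co-chaperone that also restrains the kinase PERK, had -0.36 and 0.45 for fish oil by its 2 probe sets. Of the 13 genes of this compartment 11 lay below control with fungal oil, 8 with fish oil and 8 with both oils, with median log2 differences of -0.17, -0.11 and -0.07, and 0 of them passed the test. Of all 60 kept members 37 lay below control with fungal oil, 28 with fish oil and 28 with both oils. The medians over all probe sets were -0.01, 0.01 and 0.05. The share of all probe sets below control was not counted, and whether the compartment differs from all probe sets was not tested.

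No mitochondrial chaperone and no subunit of the CCT ring passed the test in liver. Hspd1, the mitochondrial Hsp60, read 3861 (fungal oil), 4562 (fish oil) and 3530 (both oils), against 3694 and 3091 in the controls. Its partner Hspe1 had log2 differences of -0.04 (fungal oil), -0.03 (fish oil) and 0.22 (both oils), and Hspa9, the mitochondrial Hsp70, of 0.11 (fungal oil), -0.04 (fish oil) and -0.06 (both oils). Dnaja3, the J protein of mitochondria, read 345 (fungal oil), 299 (fish oil) and 459 (both oils), against 316 and 282. Its highest value was that of the both oils RNA, with a log2 difference of 0.62 (adjusted p = 0.447). The 8 of 9 genes of the CCT ring that were kept had median log2 differences of 0.05 (fungal oil), 0.07 (fish oil) and 0.05 (both oils). Cct4 on chip A stood highest in the fish oil RNA, with 402 (fungal oil), 462 (fish oil) and 324 (both oils) against 331 and 330 in the controls, and Tcp1, another subunit, had log2 differences of -0.09 (fungal oil), -0.22 (fish oil) and -0.05 (both oils).

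Among J proteins, small heat shock proteins and immunophilins the RNAs fell in several orders. Dnaja1, a cytosolic partner of Hsc70, read 1101 (fungal oil), 1222 (fish oil) and 1071 (both oils), against 917 and 869 in the controls, and all 3 oil RNAs lay above both controls. Dnajb1, the heat-inducible Hsp40, read 84 (fungal oil), 156 (fish oil) and 78 (both oils), against 118 and 114, by its brighter probe set. Its dimmer probe set read 28 (fungal oil), 15 (fish oil) and 82 (both oils), against 43 and 83, so that the fish oil RNA was highest by 1 and lowest by the other. Dnajc13, an endosomal J protein, had its lowest value in the fish oil RNA by both probe sets, with 47 against 95 and 136 in the controls and with 33 against 69 and 79. Dnajb6, known to hold back aggregation of polyglutamine proteins, had a log2 difference of 0.67 for fungal oil (adjusted p = 0.596) by its dimmer kept probe set, and its 2 kept probe sets had opposite signs for fish oil, at -0.18 and 0.24. Among small heat shock proteins Hspb1 (Hsp27) had log2 differences of -0.04 (fungal oil), -0.16 (fish oil) and -0.01 (both oils). Fkbp5, an Hsp90 partner induced by glucocorticoids, read 142 (fungal oil), 176 (fish oil) and 200 (both oils), against 126 and 151, and Fkbp1a, the binding protein of FK506 and rapamycin, read 399 (fungal oil), 580 (fish oil) and 668 (both oils), against 580 and 553, by its brighter probe set. Fkbp9, an immunophilin of the endoplasmic reticulum near the floor in liver, read 31 (fungal oil), 52 (fish oil) and 19 (both oils), against 39 and 31. The perlecan gene Hspg2, no chaperone, read 130 (fungal oil), 35 (fish oil) and 64 (both oils), against 77 and 95 on chip A, while its probe set kept from chip B read 303 (fungal oil), 375 (fish oil) and 395 (both oils), against 395 and 371.

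**Figure D2:**
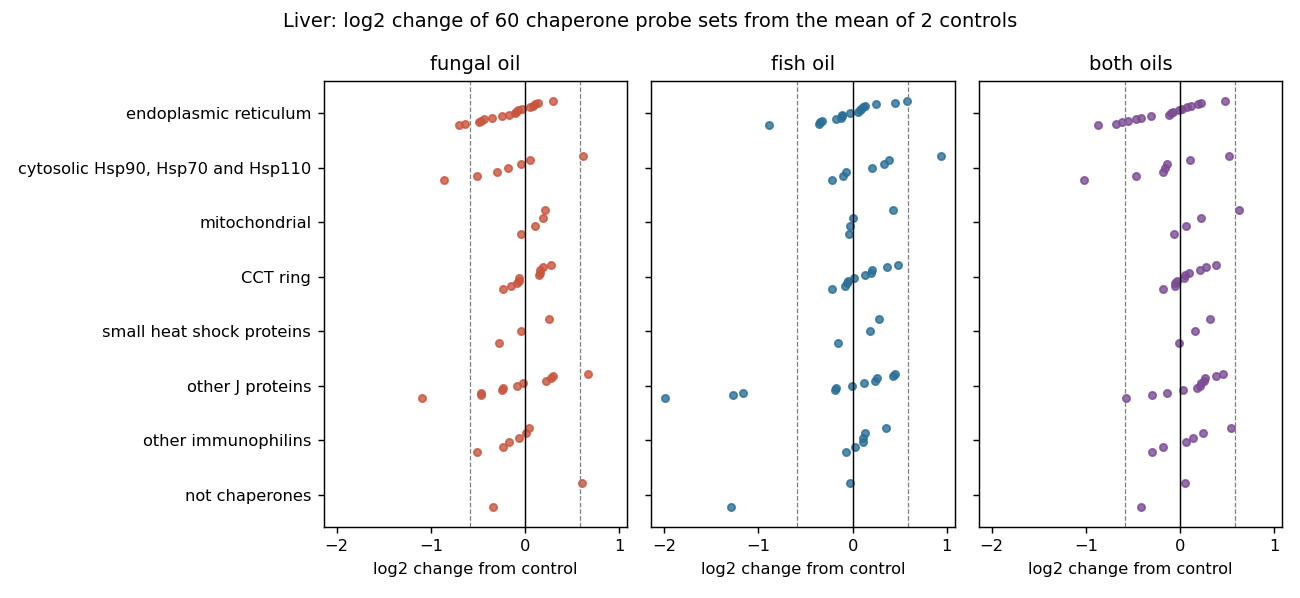
Log2 change from the mean of the 2 controls (horizontal axes) in liver for the 60 kept probe sets, 1 point each, by role (rows) and diet (panels), with dashed lines at 1.5-fold. Most points lie between the dashed lines, and points outside them fall in several roles.

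Over the whole set no liver contrast gave a call. With limma, 0 of 60 members had an adjusted p under 0.05 for fungal oil, fish oil, both oils, fungal against fish oil or the interaction of the oils, each against a background of 0.0% of 6537 probe sets. For the 3 oil RNAs together against the controls it was again 0, against 0.0612%. At an unadjusted p under 0.05 there were 6 members (10.0%) for fungal oil against 9.15% of all probe sets, 10 (16.7%) for fish oil against 11.1%, and 6 (10.0%) for both oils against 9.9%. There were 8 (13.3%) for fungal against fish oil, beside 8.99%, 6 (10.0%) for the interaction, beside 9.29%, and 4 (6.67%) for any oil, beside 8.18%. The members' shares were thus near the background. The median over member genes was -0.09 (fungal oil), -0.01 (fish oil) and 0.04 (both oils) on the log2 scale, against -0.01, 0.01 and 0.05 over all probe sets.

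Counts that need no variance follow. At least 1.5-fold below both controls were 3 members for fungal oil (Dnajb1, Hspa5, Hsph1), 5.0% against 7.86% of all probe sets, 5 for fish oil (Dnajb1, both probe sets of Dnajc13, Hspg2, Pdia6), 8.33% against 9.22%, and 3 for both oils (Fkbp9, Hspa5, Hsph1), 5.0% against 7.33%. Above both controls were 0 for fungal oil against 4.42%, 1 for fish oil (Hspa4) against 5.19%, and 0 for both oils against 6.52%. The 2 controls themselves differed by 1.5-fold in 2 members (Canx, Dnajb1), 3.33%, against 21.4% of all probe sets. Members were bright, with 45 of 60 in the bright subset, beside 3269 of 6537 probe sets. There 4.44% lay below both controls for fungal oil against 4.1%, 0 for fish oil against 4.59%, and 4.44% for both oils against 4.37%. Above both controls were 0 members, against 1.96% (fungal oil), 2.51% (fish oil) and 3.15% (both oils). The difference between the controls was not counted in that subset. Whether the members' shares differ from those of all probe sets was not tested, and with no filter the order was the other way in some counts, with 7.59% of members against 6.03% below both controls for fungal oil, 8.86% against 6.63% for fish oil and 7.59% against 5.61% for both oils.

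The order seen for BiP led to a further look at fungal oil, chosen after the values had been seen. Both fungal oil RNAs lay below the other 3 in 10 members, 16.7% against 10.5% of all probe sets, and these were Dnajb1, Dnajb11, Dnajb3, both probe sets of Hsp90aa1, Hspa4, both of Hspa5, Hspa8 and Hsph1. They lay above the other 3 in 5 members, 8.33% against 10.7%. For fish oil the counts were 3 below, 5.0% against 9.5%, and 7 above, 11.7% against 13.2%. In a contrast of both RNAs with fungal oil against the RNAs without it, added for the same reason, 9 members (15%) had an unadjusted p under 0.05 against 9.55%, and for fish oil 3 (5.0%) against 9.58%. Hspa5 on chip A had a log2 difference of -0.72 ± 0.06 for fungal oil in that contrast (unadjusted p = 0.000908, adjusted p = 0.464). Its adjusted p was 0.0351 when the fit was limited to bright probe sets and 0.0433 with no filter, so that whether it passed depended on the filter in a contrast that was itself chosen from these values. Hsph1 was at -0.83 ± 0.12 (adjusted p = 0.464).

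Other cell types' markers moved among the liver RNAs too. The summed intensity of 11 measured macrophage and Kupffer genes was 1486 (fungal oil), 1728 (fish oil) and 1721 (both oils), against 2284 and 2137 in the controls, with Marco at the floor on every array. That of 3 blood genes was 11555 (fungal oil), 16001 (fish oil) and 8452 (both oils), against 13858 and 11726, and that of 5 endothelial genes was 292 (fungal oil), 432 (fish oil) and 510 (both oils), against 611 and 459. Blood genes, like Hspa5, were lowest in the RNAs with fungal oil and highest in that with fish oil alone. The part of these cells in the chaperone values was not tested. Hepatocyte markers summed to 39032 (fungal oil), 45401 (fish oil) and 38525 (both oils), against 39712 and 34915.

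Genes of the same pathways that are not members gave 0 calls in the liver diets by limma, out of 18 tested genes of the unfolded protein response and glycoprotein folding, 14 heat shock factors and co-chaperones, 1 other cyclophilin and 4 cold-inducible or glucocorticoid-induced genes. At an unadjusted p under 0.05 there were 5 (fungal oil), 1 (fish oil) and 3 (both oils) genes of the first list, 1 in each diet of the second, 0 of the third, and 1 (fungal oil), 0 (fish oil) and 2 (both oils) of the fourth. Manf, a secreted partner of BiP, read 703 (fungal oil), 1345 (fish oil) and 840 (both oils), against 1113 and 1184 in the controls, with an adjusted p of 0.505 for fungal oil. Creld2, a stress-induced protein of the endoplasmic reticulum, read 72 (fungal oil), 246 (fish oil) and 163 (both oils), against 222 and 289. Both were lowest in the RNAs with fungal oil. Herpud1, a stress-induced membrane protein of degradation, went the other way, with 1626 (fungal oil), 1398 (fish oil) and 1902 (both oils) against 991 and 1076, so that all 3 oil RNAs lay above both controls. Stip1, which links Hsp70 to Hsp90, read 112 (fungal oil), 155 (fish oil) and 124 (both oils), against 264 and 259, all below both controls (adjusted p = 0.162 for any oil). Derl2, of the degradation channel, read 445 (fungal oil), 666 (fish oil) and 638 (both oils), against 871 and 724, and Atf4, a transcription factor of the stress response, read 910 (fungal oil), 1045 (fish oil) and 647 (both oils), against 1115 and 1129. All oil RNAs of both genes lay below both controls. These 6 genes had unadjusted p under 0.05 for fungal oil and were picked for it, 5 of the 18 genes of the first list and 1 of the 14 of the second, beside 9.15% of all probe sets, and this was not tested further. The median over the unfolded protein response list was -0.03 for fungal oil, 0.03 for fish oil and 0.01 for both oils.

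In hippocampus, with 1 RNA per diet and no test, 3 chaperone values in all were at least 1.5-fold from control. At least 1.5-fold above control was 1 of 62 members for fungal oil (Dnajb3), 1.61% against 7.89% of all probe sets, and 1 for fish oil (Canx), 1.61% against 8.03%. Below control were 1 for fungal oil (Dnajc13), 1.61% against 6.39%, and 0 for fish oil against 7.1%. With both oils 0 of 21 members on chip B were above, against 8.92%, and 0 below, against 7.06%. Members were bright, with 43 of 62 in the bright subset, beside 3268 of 6538 probe sets. In that subset fungal oil gave 0 above, against 2.42%, and 0 below, against 2.51%. Fish oil gave 1 above (Canx), 2.33% against 2.88%, and 0 below, against 2.82%. The shares of all probe sets were thus lower there, and whether members differ from probe sets of like brightness was not tested. Dnajb3 read 80 (fungal oil), 57 (fish oil) and 79 (both oils), against 53 in the control. Canx by the dimmer of its chip A probe sets read 168 (fungal oil) and 294 (fish oil), against 188, and Dnajc13 read 95 (fungal oil) and 114 (fish oil), against 169, by its brighter probe set and 92 and 98, against 71, by the other. The 2 probe sets of Dnajc13 thus had opposite signs.

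The genes described first in liver read as follows in hippocampus. Hspa5 on chip B read 669 (fungal oil), 812 (fish oil) and 828 (both oils), against 669 in the control, and on chip A 510 (fungal oil) and 542 (fish oil), against 605. Hsph1 read 936 (fungal oil) and 1005 (fish oil), against 1017, and Dnajb11 read 164 (fungal oil) and 176 (fish oil), against 182. By the 3 probe sets on chip A, where the both oils RNA was not analysed here, the fungal oil RNA was lowest and the control highest, while by the one on chip B fungal oil equalled the control and the other oil RNAs lay above it. Fkbp5 read 215 (fungal oil) and 219 (fish oil), against 285, P4hb read 195 (fungal oil), 177 (fish oil) and 133 (both oils), against 196, and Pdia4 read 166 (fungal oil) and 134 (fish oil), against 177. The largest values above control with both oils after Dnajb3 were log2 differences of 0.41 for Fkbp9 and 0.34 for Hspa2, and the lowest was -0.56 for P4hb. The median over member genes was -0.01 (fungal oil), 0.01 (fish oil) and 0.05 (both oils). In the same arrays the sum of 5 choroid plexus and meninges genes was 4673 (fungal oil) and 2534 (fish oil), against 1426 in the control, and its part in these values was not tested.

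**Figure D3:**
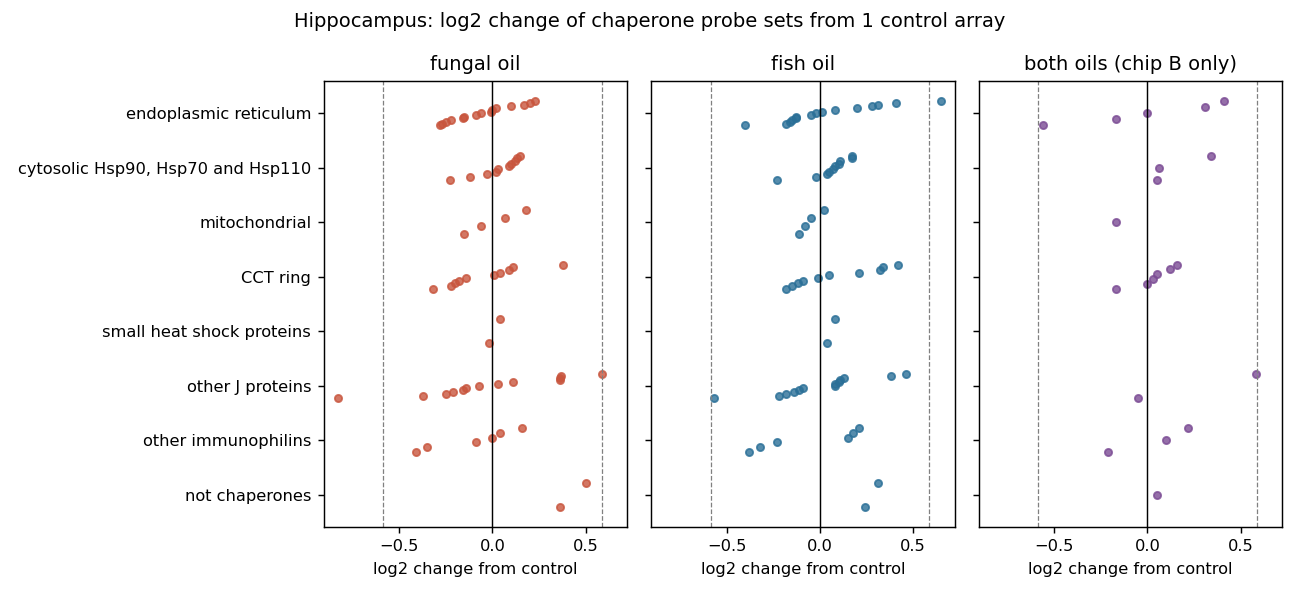
Log2 change from the single control array (horizontal axes) in hippocampus for the kept probe sets, 1 point each, by role (rows) and diet (panels), with dashed lines at 1.5-fold. The panel of both oils holds the 21 chip B probe sets, and 3 points in all lie past a dashed line.

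Between the tissues 8 of 13 genes of the endoplasmic reticulum and 4 of 4 of mitochondria were higher in liver, and 6 of 6 cytosolic Hsp90, Hsp70 and Hsp110 genes were lower in liver than in hippocampus, at an adjusted p under 0.05. Over all probe sets 28.3% were higher and 42.2% lower by the same rule, and whether the roles differ from these shares or from each other was not tested. Some genes entered only through the tissue where they were bright, so that their direction follows from the filter: Pdia5, Hspb2 and the chip B probe set of Dnajc3 through liver, and Hspa2, Hspa14 and Hspbp1 through hippocampus. Among genes kept in both tissues the counts were 7 of 12, 4 of 4 and 4 of 4, beside 24.5% of all such probe sets higher and 38.9% lower. With a call set at 2-fold or more and an adjusted p below 0.05, 11 of 62 members were higher in liver, 17.7% against 19.1% of all probe sets, and 14 were lower, 22.6% against 31.7%. At an adjusted p under 0.05 at any fold, a count added after the values had been seen, 19 were higher, 30.6%, and 26 lower, 41.9%. The shares over the whole set were thus near the background or below it. Tissue cannot be told apart from the RNA quality given above. Array titles also end differently in liver and hippocampus, and tissue cannot be told apart from what that ending stands for.

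In the endoplasmic reticulum 1 of the 13 genes was lower in liver at an adjusted p under 0.05, and the median log2 difference over the 12 kept in both tissues was 0.55. P4hb read 2483 (fungal oil), 2679 (fish oil), 2420 (both oils), 2671 and 2417 (controls) in liver, against 195 (fungal oil), 177 (fish oil), 133 (both oils) and 196 (control) in hippocampus, a log2 difference of 3.85 ± 0.11 (adjusted p = 2.24e-07). Pdia5, another isomerase, read 338 (fungal oil), 312 (fish oil), 553 (both oils), 484 and 327 (controls) in liver, against 16 (fungal oil), -8 (fish oil) and -8 (control) in hippocampus. It was above the floor in 1 of 3 hippocampus arrays, and the fitted log2 difference of 4.52 depends on that floor. Hspa5 was higher in liver by 1.61 ± 0.13 (chip A, adjusted p = 6.41e-05) and 1.69 ± 0.15 (chip B, adjusted p = 5.43e-05), Pdia4 by 1.67 ± 0.12, and Dnajc3 by 1.64 ± 0.10 and, from its probe set on chip B, by 3.82, where 1 of 4 hippocampus arrays was above the floor. Pdia3 was higher by 0.93 and Calr by 0.40, both with an adjusted p under 0.05. Fkbp9 was lower in liver by -1.44 ± 0.33 (adjusted p = 0.0059), with 19 to 52 in liver against 71 to 114 in hippocampus. Canx had log2 differences of -0.48, -0.16 and 0.08 by its 3 probe sets, of which the first passed an adjusted p under 0.05.

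Of the 9 cytosolic Hsp90, Hsp70 and Hsp110 genes 6 were fitted, and the 4 kept in both tissues, all lower in liver, had a median log2 difference of -1.48. Hspa2, an Hsp70 known from testis, read -11 (both oils) to 11 (fish oil) in the oil RNAs and -28 and -24 in the controls of liver, all at the floor, against 182 to 230 in hippocampus. It was at least 13.3-fold lower in liver, but it entered the fit only through hippocampus, so that this direction follows from the filter. Hsph1 was at 115 to 237 in liver against 936 to 1017 in hippocampus, a log2 difference of -2.40 ± 0.15 (adjusted p = 2.5e-05). Hsp90aa1 was lower at -1.77 ± 0.13 (chip A) and -2.0 ± 0.08 (chip B). The tissues did not overlap for either gene. Hspa14 was lower at -1.59, and Hspa8 at -0.70 (chip A) and -0.56 (chip B). Hspa4 was lower at -1.19 by its brighter probe set, while its dimmer one, at 0.17, did not pass.

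All 4 mitochondrial genes were higher in liver at an adjusted p under 0.05, with log2 differences of 1.62 ± 0.10 for Hspd1, 0.80 for Hspe1, 0.69 for Dnaja3 and 0.49 for Hspa9. Hspd1 read 3091 to 4562 in liver against 1138 to 1281 in hippocampus. In the CCT ring 4 of 8 genes were lower in liver and 0 higher, from -0.96 ± 0.12 for Tcp1 to -0.33 for Cct6a, close to the 42.2% of all probe sets. The 2 probe sets of Cct3 had opposite signs, at -0.43 and 0.09. Small heat shock proteins were mixed. Hspb8, a partner of Bag3, was higher by 1.49 ± 0.12, while Hspb1 was lower at -0.84 ± 0.13. Hspb2 had a log2 difference of 1.13 ± 0.29, whose call was lost in 4 of the alternatives, among them without the hippocampus control (0.87, adjusted p = 0.102). Among other J proteins Dnajb1 was lower at -1.04 and -2.78 for its 2 probe sets, Dnajb6 at -1.59 ± 0.12 for its brighter probe set and Dnaja2 at -0.95, and Dnajb3 was higher by 0.73.

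Of the 5 other immunophilins, all kept in both tissues, 4 were lower in liver and 1 was higher at an adjusted p under 0.05. Among all probe sets kept in both tissues 38.9% were lower and 24.5% higher, and the difference was not tested. Fkbp2 and Fkbp9 are counted with the endoplasmic reticulum. Fkbp1a read 399 (fungal oil), 580 (fish oil), 668 (both oils), 580 and 553 (controls) in liver, against 3790 (fungal oil), 4117 (fish oil), 3207 (both oils) and 3698 (control) in hippocampus by its brighter probe set, a log2 difference of -2.76 ± 0.14 (adjusted p = 3.33e-06), and -2.73 ± 0.07 by the other. The tissues did not overlap for either probe set. Fkbp3, a nuclear member, was lower at -1.91 ± 0.13, and Fkbp8 and Fkbp5 were lower at -0.83 and -0.69. Fkbp4, which guides steroid receptors with Hsp90, was higher in liver by 1.55 ± 0.12, with 1405 to 1822 in liver against 463 to 634 in hippocampus. Hspbp1 was lower in liver, where 1 of 5 arrays was above the floor, against 121 to 171 in hippocampus, and its fitted log2 difference depends on that floor, from -3.67 to -1.91 over the alternatives.

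**Figure D4:**
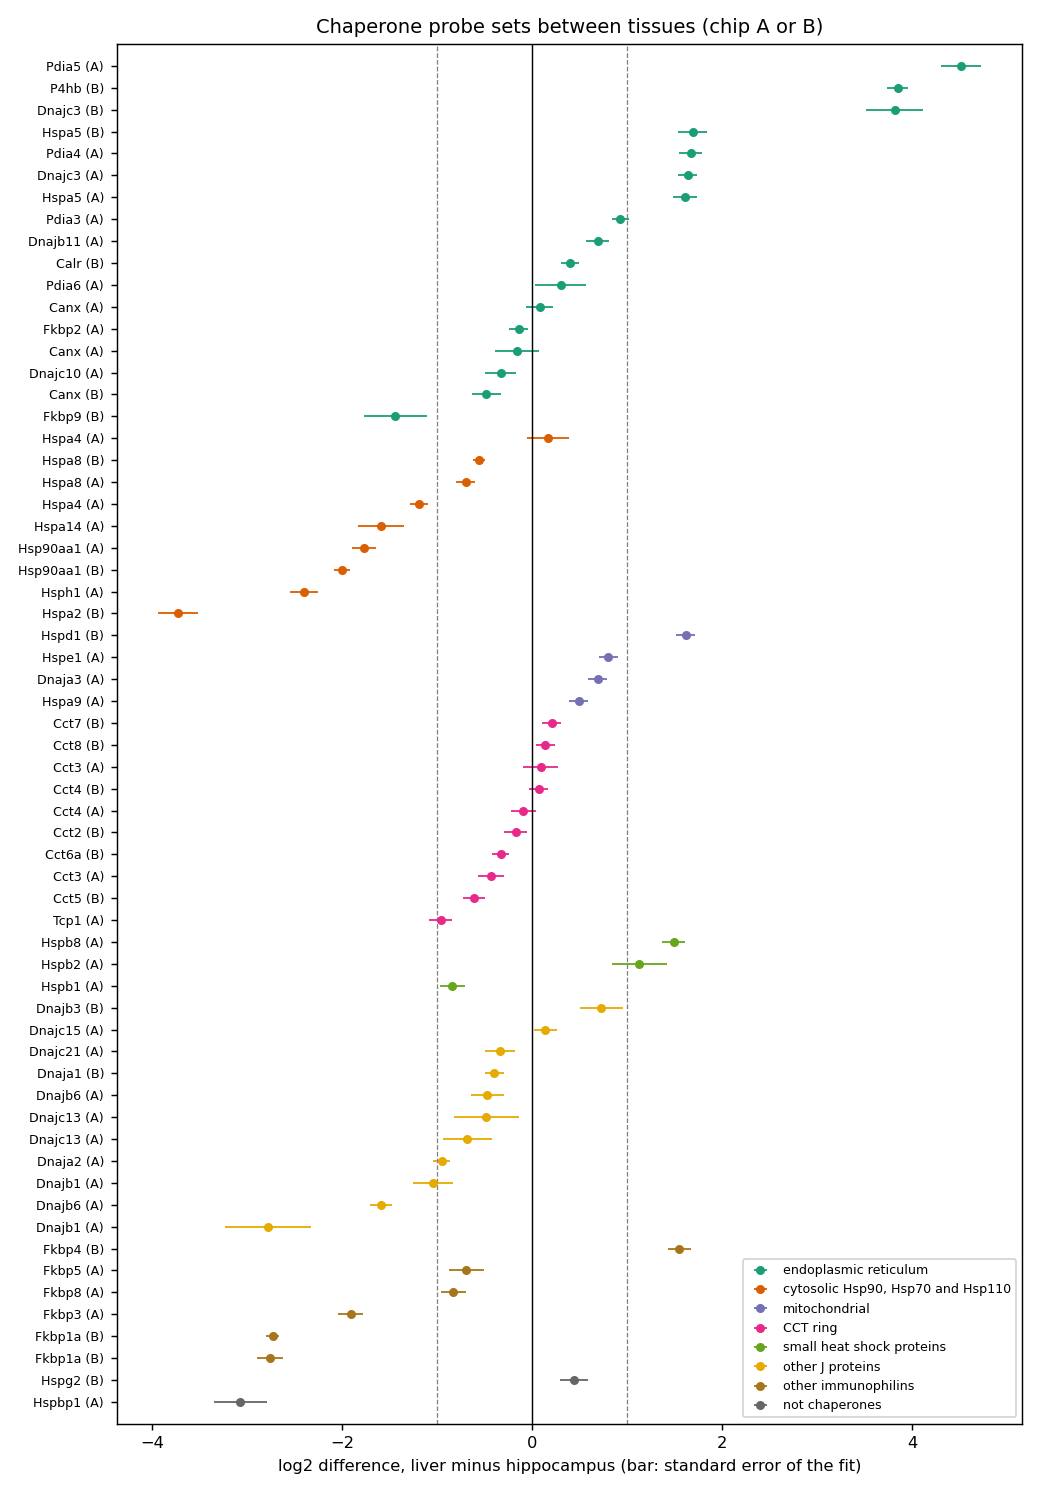
Log2 difference of liver minus hippocampus (horizontal axis) for the 62 probe sets fitted, with the standard error of the fit as bars, grouped by role (colours) and named by gene and chip, with dashed lines at 2-fold. P4hb lies at 3.85 on the right and the brighter probe set of Fkbp1a at -2.76 on the left, while the places of Pdia5, Dnajc3 on chip B, Hspa2 and Hspbp1 are set by the floor.

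The pathway genes that are not members differed between the tissues as well. Of 18 genes of the unfolded protein response and glycoprotein folding 9 were called higher in liver and 1 lower, with a median log2 difference of 1.19, against 19.1% and 31.7% of all probe sets. The 1 lower gene, Asns, was below the floor on every liver array. It entered only through hippocampus, so that its direction follows from the filter. Of 15 heat shock factors and co-chaperones 1 was called higher and 6 lower, with a median of -0.51. Of these 6, Tomm34 was likewise below the floor on every liver array and entered only through hippocampus. Genes of these lists kept in both tissues were not counted apart, so other directions may also follow from the filter. Derl2 was higher in liver by 2.83 and Manf by 2.69, while Stip1 was lower at -1.48. Over all member genes the median difference was -0.17, and over all probe sets it was -0.31. Quantile normalization moved these medians to 0.01 and -0.06, so differences of that size between the tissues have no settled direction. Under that scaling the log2 difference of Hspa8 on chip B became -1.54.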

How the data were processed

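Liver and hippocampus RNA was hybridised to 17 oligonucleotide arrays of 2 designs. For every probe set the authors deposited a whole-number intensity, which may lie below 0. How it was computed (software, background, scaling) is not given in the sources used here. Trimmed means of 148.4 to 150.5 on the arrays show a common scale. Gene names came from GEO's platform annotation.

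Intensities below 0.1 times the trimmed mean were set to that floor, log2 was taken, and probe sets in the dimmer part of each chip, split at the median mean intensity in each tissue, were left out. Liver was fitted with limma (3.58.1, R 4.3.3) as 4 diet groups per chip, with an intensity trend and Benjamini-Hochberg adjustment over 6537 probe sets of both chips. Only the control is replicated, which leaves 1 residual degree of freedom, so the test takes the controls' spread for every oil diet. Any oil against control had 3 residual degrees of freedom. Tissues were fitted with tissue and diet over 6535 probe sets. Hippocampus diets were described without a test. Fits were run on simulated data that gave every RNA the spread of the 2 liver controls. The simulation thus cannot test whether the oil RNAs vary as the controls do. Of 200 simulated 2-fold changes in 1 diet 131 were recovered, with 15 false calls. A gene is represented by its brightest probe set in counts of genes, and other probe sets are given for the genes described. Genes were named by fixed rules (listed genes, the 3 largest changes each way per diet, the 5 brightest members per tissue, the 6 largest tissue differences each way, members 1.5-fold from both controls), and other genes for their values. Members, lists and motifs were chosen with earlier results of these data known. The number of arrays limits the precision. The alternatives tried were no filter, quantile normalization, floors at 0.5 and 2.5 times the one used, a bright subset at the 75th percentile, no trend, an additive fit, tissue without diet, a 2-fold threshold and leaving out each RNA.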

Additional observations from a re-analysis of the deposited data

Results flagged for a closer look

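Single arrays stood far from the others of their tissue in 6 of 83 groups of probe set and tissue checked (61 in liver, 22 in hippocampus), where chance flags about 1 in 20 groups. In liver, Hspg2 on chip B read 303 in the fungal oil RNA against 371 to 395 in the others, Hspb2 read 88 in control 1 against 118 to 130, and Hspbp1 read 26 in control 2 with the other arrays at 12 or less. In hippocampus, Cct2 read 1087 in the fish oil RNA against 858 to 891, Cct5 read 465 in the fungal oil RNA against 579 to 598, and Dnajc3 on chip B read 32 in the control with the others at -13 or less. For Hspbp1 and Dnajc3 every other array was below the floor. Any value above it is then flagged, so the chance rate does not cover them.

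In 4 members every oil RNA lay on one side of both controls in liver and every oil RNA on the other side of the control in hippocampus. Mean log2 differences of the oil RNAs from control in liver and in hippocampus were -0.71 and 0.20 for Pdia6, 0.14 and -0.12 for Pdia3, 0.19 and -0.15 for Cct4 on chip B, and 0.34 and -0.09 for Dnaja1. These were 7.14% of the 56 members kept in both tissues, against 7.37% of all 5183 probe sets kept in both. The difference between the tissues was not tested.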

How the results depend on the processing

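With 0 calls in each liver contrast, member calls by limma stayed at 0 under quantile normalization, both other floors, no trend and the additive fit, where run. With no filter 1 (both oils), 3 (fish oil), 3 (fungal against fish oil) and 3 (interaction) members were called, and 4 (fungal oil) and 3 (fish oil) in the averaged contrasts added later, where the bright subset called 1 for fungal oil. Apart from Hspa5 for averaged fungal oil, the calls with no filter were of Dnajb9, Dnajc1 and Dnajc2, all too dim for the main filter. In liver the controls read -3 and 15 for Dnajc2. For 1 probe set each they read -3 and 5 for Dnajb9 and 2 and -4 for Dnajc1. Those values are at or below the floor, which thus sets the spread of these controls. With no filter the shares called were 1.27% of members against 2.6% of all probe sets (both oils), 3.8% against 3.03% (fish oil), 3.8% against 4.67% (fungal against fish oil), 3.8% against 6.28% (interaction), 5.06% against 6.21% (averaged fungal oil) and 3.8% against 6.3% (averaged fish oil), and in the bright subset 2.22% against 1.13%. Members past 1.5-fold in liver with no filter were 6 lower for fungal oil, 3 higher for fish oil and 1 higher and 6 lower for both oils. The shares of all probe sets there were 6.03% lower for fungal oil, 6.39% higher for fish oil, 6.53% higher and 5.61% lower for both oils. In the bright subset 0 were higher and 0 lower for fish oil, against 2.51% and 4.59%. Quantile normalization gave 2 higher for fungal oil, against 4.94%. At 2-fold 0 were lower for fungal oil, against 3.75%, and 0 higher for fish oil, against 1.71%. Lower for fish oil were 4, 6.67% against 4.3%, and 1 was lower for both oils, 1.67% against 3.58%. In hippocampus no filter gave 5 higher and 2 lower (fungal oil), 7 higher and 2 lower (fish oil) and 1 lower (both oils). The shares of all probe sets there were 9.27% and 7.57%, 8.5% and 7.96%, and 7.11%. For fungal oil the bright subset gave 0 and 0, against 2.42% and 2.51%, and the 2-fold threshold gave 0 and 0, against 3.03% and 2.23%. Quantile normalization gave 0 higher for fungal oil, against 7.28%, and 2-fold gave 0 higher for fish oil, against 2.89%. The causes were not tested.

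Medians over member genes moved by more than the spread of the control medians, 0.0419, in these cases. Averaging the probe sets of each gene, done for medians only, gave 0.04 for fish oil, 0.04 for the interaction and -0.04 for the averaged fungal contrast. No filter gave 0.0 for both oils, and quantile normalization gave 0.05 for the interaction. Leaving out 1 RNA at a time gave -0.08 to 0.0 for any oil, -0.05 to -0.04 for the averaged fungal contrast, 0.05 to 0.1 for the interaction and -0.23 to -0.16 between tissues. Between tissues it was 0.08 in the bright subset, -0.33 with no filter and 0.01 under quantile normalization. Member calls between tissues were 45 at any fold, against 25 at 2-fold.

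Among values of named genes the additive fit turned the sign for fungal oil of Canx (0.14), the dimmer probe set of Dnajb1 (0.42), Hspa8 on chip B (-0.07), Hspb1 (0.04), Hspd1 (-0.05), Hspe1 (0.08) and Tcp1 (0.02), and for fish oil of Hspe1 (0.10) and Pdia4 (0.01), and quantile normalization turned that of Hspb1 (0.02), with adjusted p of 0.883 or above in each. Between tissues Canx turned to -0.09 under quantile normalization and to -0.11 without the hippocampus control, and Pdia6 to -0.10 without it. Leaving out 1 RNA at a time gave -0.11 to 0.23 for Canx and -0.10 to 0.51 for Pdia6. Tissue calls were lost in some settings for Hspb2, Fkbp9 and the brighter probe set of Dnajb1, among them Hspb2 without the hippocampus control (0.87, adjusted p = 0.102). Without 1 liver control the 4-group fit has no residual degree of freedom and gives values with no test. No analysis paired by animal was run, as no RNA was assigned to a mouse here. The tissue fit included diet. Signal over background limits dim members such as Hspa1a.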
